A study of Mus musculus with 16 samples.

Results

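The effect of diet duration was estimated in brachiocephalic arteries as 42 against 24 weeks on a Western-type diet, averaged over both genotypes of the study. The members are all 16 libraries of the series: the 8 whose labels give 42 weeks were set against the 8 whose labels give 24 weeks, with genotype as a factor in an additive model. Each library came from a separate female mouse, and polyadenylated RNA was sequenced from scraped frozen sections of the whole vessel. At each duration 4 mice were Apoe-/- and 4 were Apoe-/-Mif-/-, so by the labels every mouse lacked Apoe and no mouse with intact Apoe or on regular chow was included. The diet held 0.2% cholesterol and 21.2% fat and started at 6 weeks of age, which makes the mice 30 weeks old in the 24-week groups and 48 weeks old in the 42-week groups. Time on diet and age therefore cannot be told apart. The deletions are germline and act in every cell, and lysates of 3 to 4 sections were pooled per mouse, so that a library represents a short stretch of 1 vessel. The series title names ageing and protection from atherosclerosis in Mif deficiency as the subject.

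The brachiocephalic artery is a branch of the aortic arch and a common place for advanced plaques in mice without apolipoprotein E, which carries lipoproteins to their receptors. In a plaque, macrophages take up lipoprotein, store cholesterol ester and become foam cells, which hydrolyse their load in lysosomes and pass cholesterol to acceptor particles. Smooth muscle cells of the media can lose contractile proteins and lay down collagen, and old plaques are known for necrotic cores, calcification and, in some cases, bleeding into the plaque. A section of the whole vessel also holds adventitia, perivascular fat and blood, and can touch neighbouring organs. MIF is a cytokine with chemokine-like functions.

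Total counts ran from 1099838 to 8649518 at 24 weeks (median 3497602) and from 378066 to 4586278 at 42 weeks (median 3124280), and the log10 totals did not differ beyond the spread between mice (two-sided exact permutation within genotype, p = 0.287). Fewer genes reached 10 counts at 42 weeks, 6448 ± 2078 against 9063 ± 1855 (SD, n = 8 each, exact permutation p = 0.0257, Benjamini-Hochberg adjusted p = 0.103 over 4 library measures). The mitochondrial share was 4.22% ± 2.74 at 42 weeks and 3.11% ± 3.42 at 24 weeks (exact permutation p = 0.500). Libraries of the same duration were no more alike than libraries of different durations, with a median Spearman correlation across genes of 0.530 over 56 pairs and 0.529 over 64 pairs. No pair of libraries exceeded 0.678, so none looked like 1 library deposited in duplicate. Defining artery markers were present at both durations, with Acta2, the smooth muscle actin, at 426 to 12016 CPM (TMM-scaled counts per 1000000) and Pecam1, an endothelial adhesion molecule, at 10.5 to 2064 CPM over the 16 libraries. The 4 Apoe-/-Mif-/- libraries at 24 weeks carry the letter C in their sample codes and the other 12 the letter B. The labels do not say what the letter stands for, and letter and group cannot be told apart.

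Mif and Apoe transcripts were compared first. Mif was present at 5.88 to 177 CPM at 24 weeks (median 62.4) and 2.39 to 301 CPM at 42 weeks (median 18.8). The 2 durations overlapped over nearly their whole range. Both pool mice with and without the gene, and no library at either duration was without Mif counts. The part of genotype in that overlap was not tested. The additive log2 fold change was -0.14 ± 0.73 (SE, taken as the fold change divided by the square root of the F statistic; edgeR adjusted p = 0.983), with a sign that turned under RLE scaling (0.23). Apoe transcripts were present at 3.08 to 111 CPM at 24 weeks (median 39.1) and 2.58 to 1127 CPM at 42 weeks (median 30.7), and Apoe-/- 42-week library 4 held 58.7% of the Apoe signal of all libraries. The genotype of that library was taken from its label and was not tested.

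Across all genes, no transcript passed the additive test. edgeR's quasi-likelihood test called 0 genes higher (0%) and 0 lower (0%) of 10634 tested at an adjusted p under 0.05, and the smallest adjusted p was 0.198. At an unadjusted p under 0.05 there were 995 genes (9.36%), 387 higher at 42 weeks (3.64%) and 608 lower (5.72%). After TMM scaling, which centres the libraries, 50.5% of genes were higher with a median log2 fold change of 0.02. Under RLE scaling 60.8% were higher (median 0.37) and under voom 40.7% (median -0.26), a shift of all genes by 0.35 and -0.27. Lists are therefore also given below relative to the median of all genes under the same scaling where the sign turned. Limma voom and limma on the deposited log2 values also called 0 genes in each direction. DESeq2 called 194 genes higher and 157 lower with 1814 genes given no adjusted p, and 105 of the genes it called had over 50% of their signal in 1 library. Libraries of a group varied widely, with a common biological coefficient of variation of 1.33 and a median standard error of 1.15 on the log2 scale, so a doubling of a typical gene was not detectable here. Genes above 300 CPM had a median standard error of 0.54.

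A small set of genes separated the 2 durations completely. In 9 of the 10634 genes (0.0846%) all 8 libraries at 42 weeks lay below all 8 at 24 weeks, and in 0 genes (0%) above. These 9 were Ddx39a, an RNA helicase of mRNA export, Pdia4, a disulphide isomerase of the endoplasmic reticulum, Pfkm, the muscle phosphofructokinase of glycolysis, Msi2, an RNA-binding protein, Wiz, a zinc finger protein, Cwc25, a splicing factor, Spef1, a protein of motile cilia, Rasl11a, a small GTPase, and Tyw5, a tRNA hydroxylase. Tyw5 had 64.8% of its signal in 1 library and is not described further. None passed the additive test. The filter on low counts asks for counts in as many libraries as 1 group holds. Rasl11a and Tyw5, with 0 and 2 counts over the 8 libraries at 42 weeks, passed it through the 24-week libraries, where they are high. The part of the filter in the 9 genes below and 0 above was not tested.

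Ddx39a was present at 14.8 to 134 CPM at 24 weeks (median 54.2) and at 1.03 to 9.82 CPM at 42 weeks (median 5.06). Its additive log2 fold change was -3.71 ± 0.98 (edgeR adjusted p = 0.230), with -3.97 in Apoe-/- and -3.47 in Apoe-/-Mif-/- mice. Lower values in both genotypes follow from how the gene was chosen. Pdia4 was present at 9.02 to 40.7 CPM (median 21.1) at 24 weeks and at 0 to 4.43 CPM (median 0.606) at 42 weeks, where 2 libraries held no count (log2 fold change -3.94 ± 1.16, edgeR adjusted p = 0.261). Pfkm, with counts in every library, was present at 16.2 to 49.4 CPM (median 29.4) and at 2.58 to 12.8 CPM (median 4.20; log2 fold change -2.29 ± 0.95, edgeR adjusted p = 0.430). The highest Pfkm value at 42 weeks, in library 1 of the Apoe-/-Mif-/- mice, came closest to the 24-week range. Msi2 lay between 6.58 and 19.0 CPM at 24 weeks and between 0 and 5.51 CPM at 42 weeks.

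For the other 4, the counts summed over libraries were as follows. Spef1 held 1057 counts over the 8 libraries at 24 weeks and 18 over the 8 at 42 weeks. Wiz held 890 and 35, and Cwc25 830 and 25. Rasl11a held 293 counts at 24 weeks, in every library, and 0 at 42 weeks in every library. Its pooled level at 24 weeks, 8.67 CPM, was 52.9-fold a floor of 3 counts over the 8 libraries at 42 weeks, or 0.164 CPM. The floor is on pooled counts and takes no account of the spread between mice. Over the alternative settings, other than leaving out 1 library, the Rasl11a log2 fold change ran from -7.62 to -2.01. Fewer genes reached 10 counts at 42 weeks, and the part of that difference in these results was not tested.

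**Figure D1:**
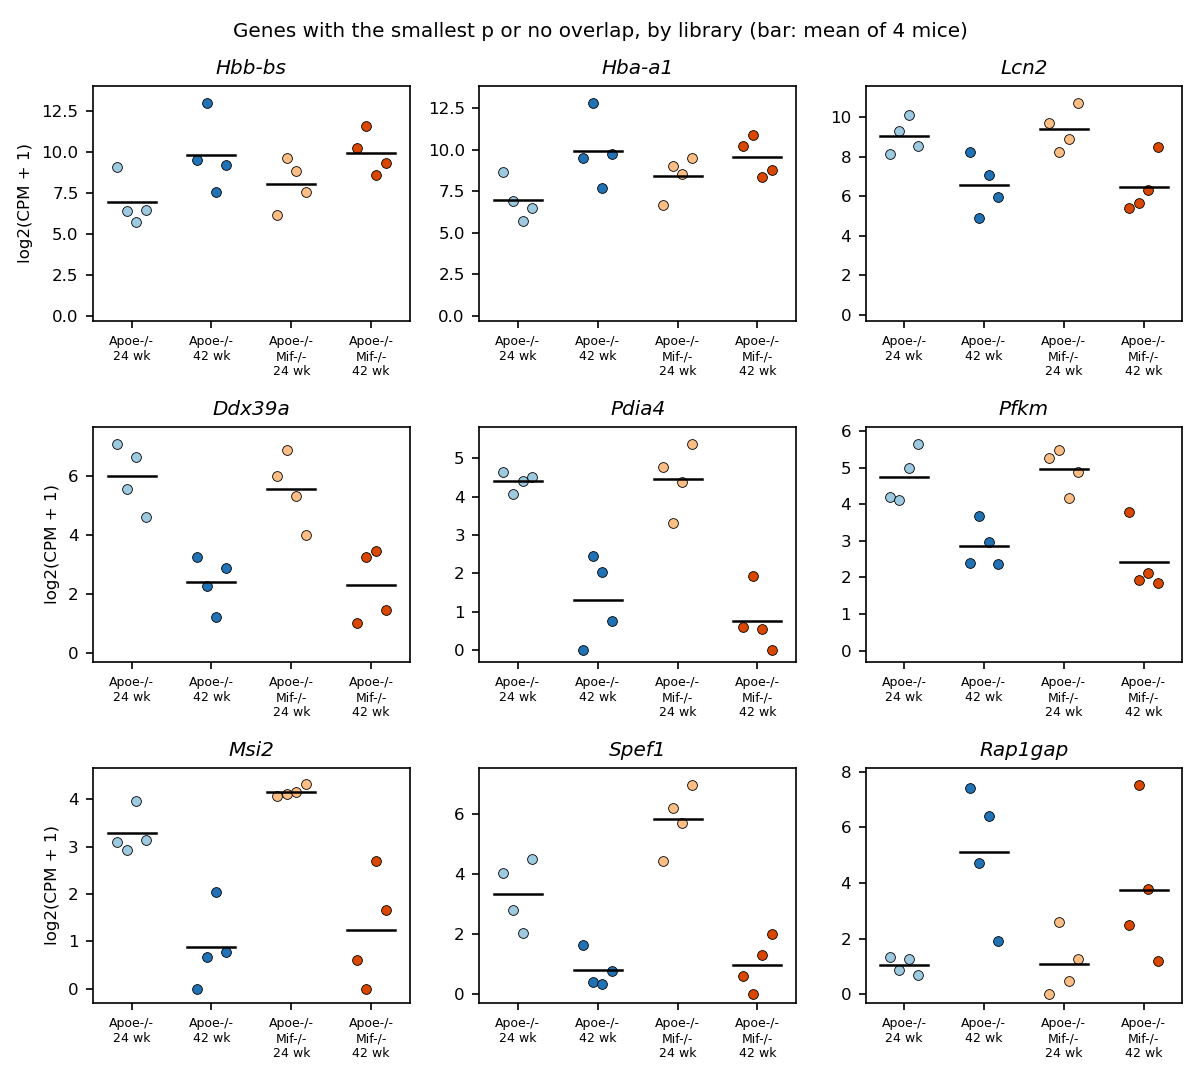
Level of 9 genes in each library as log2(CPM + 1), by genotype and weeks on diet (wk), with bars at the mean of 4 mice. Ddx39a, Pdia4, Pfkm, Msi2 and Spef1 at 42 weeks lie below every 24-week library in both genotypes, while the haemoglobin genes are higher at 42 weeks with overlap.

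The clearest difference in an abundant transcript was in Lcn2, which encodes lipocalin 2, a secreted protein that binds bacterial iron carriers and is made by neutrophils, macrophages and vascular cells under inflammatory stimulation. Lcn2 was present at 282 to 1692 CPM at 24 weeks (median 550) and at 29.3 to 356 CPM at 42 weeks (median 71.0). In 6 of 8 libraries at 42 weeks the level lay below the lowest library at 24 weeks, and all 8 lay below the 24-week median. The additive log2 fold change was -2.42 ± 0.62 (edgeR adjusted p = 0.230), and the unadjusted exact permutation p was 0.00163. The difference was -2.19 in Apoe-/- and -2.64 in Apoe-/-Mif-/- mice. Leaving out any 1 library kept the additive value between -2.96 and -2.03. Lcn2 was named for its small p in the additive test on these same libraries. A small permutation p, like signs in both genotypes and stability with 1 library left out follow in part from that choice.

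Haemoglobin transcripts were higher at 42 weeks. Hbb-bs and Hbb-bt encode the adult beta chains and Hba-a1 and Hba-a2 the adult alpha chains of haemoglobin, and all are made by erythroid precursors and persist in young red cells. To show how these genes are set up, the 120 bases before each start in RefSeq (GRCm38.p6) are printed 5′ to 3′ on the gene's own strand, for Hba-a1 at chr11:32283552-32283671 on the plus strand, Hbb-bs at chr7:103827929-103828048 and Hbb-bt at chr7:103813924-103814043, both on the minus strand. Capitals mark 3 motifs on that strand, which are CACCC as bound by erythroid Kruppel-like factors, the CCAAT box of many promoters, and ATATAA as a TATA-like element.
Hba-a1: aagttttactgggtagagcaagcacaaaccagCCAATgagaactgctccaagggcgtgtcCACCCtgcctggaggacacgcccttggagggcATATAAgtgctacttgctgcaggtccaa
Hbb-bs: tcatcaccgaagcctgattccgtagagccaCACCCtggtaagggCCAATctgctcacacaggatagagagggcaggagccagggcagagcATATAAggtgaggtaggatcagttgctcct
Hbb-bt: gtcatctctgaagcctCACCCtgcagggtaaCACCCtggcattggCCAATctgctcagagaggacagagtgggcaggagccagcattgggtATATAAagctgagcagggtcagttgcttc

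Each of the 3 stretches holds all 3 motifs, with ATATAA 28 to 30 bases before the start. Among 32851 RefSeq windows of 120 bases, searched on both strands, 31.7% hold CACCC, 21.3% hold CCAAT, 4.47% hold ATATAA and 0.286% hold all 3. In the longer RefSeq windows from which these stretches were cut, which reach past the start, Hba-a2 shares an identical run of 297 bases with Hba-a1, shifted by 3 bases. The transcripts of the 2 alpha genes, and of the 2 beta genes, are near-identical copies, so how reads were split between them is uncertain and each pair is best read as 1 signal.

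Hbb-bs was present at 51.3 to 781 CPM at 24 weeks (median 137) and at 188 to 7967 CPM at 42 weeks (median 680). All 8 libraries at 42 weeks lay above the 24-week median and 3 above the highest 24-week library. The additive log2 fold change was 2.74 ± 0.73 (edgeR adjusted p = 0.230, unadjusted exact permutation p = 0.00939), with 3.65 in Apoe-/- and 1.82 in Apoe-/-Mif-/- mice. Hbb-bs was likewise named for its small additive p, so its small permutation p and like signs in both genotypes follow in part from that choice. Apoe-/- 42-week library 2 held 46.9% of the signal, and without it the log2 fold change was 1.68. Hba-a1 was present at 50.6 to 724 CPM (median 249) and 207 to 7210 CPM (median 789), a log2 fold change of 2.46 ± 0.72 (edgeR adjusted p = 0.261). Hbb-bt and Hba-a2 had 3.16 and 2.39. Without Apoe-/- 42-week library 2, Hba-a1, Hbb-bt and Hba-a2 had 1.52, 2.04 and 1.62. Of the 6 tested genes of the erythroid list, 5 were higher and 4 were higher with an unadjusted p under 0.05, beside 3.64% of all genes. These 4 are the haemoglobin genes, whose alpha and beta pairs are each best read as 1 signal, so they are not separate observations. Alas2, the first enzyme of haem synthesis in erythroid cells, had 0.95 ± 5.08. It ranged from -1.83 to -1.81 without any 1 of the Apoe-/- 24-week libraries, and was 5.01 without Apoe-/-Mif-/- 24-week library 4. Bpgm, the red cell enzyme that makes bisphosphoglycerate and the one gene of the list that was lower, had -3.69 ± 1.34 (edgeR adjusted p = 0.357). The summed erythroid level ran from 181 to 1780 CPM at 24 weeks and from 547 to 20150 CPM at 42 weeks. How much blood each section held was not tested.

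Macrophage, foam cell and lysosome transcripts were mostly higher at 42 weeks, and no member passed the test. Of the 19 tested macrophage genes 17 were higher, with a median log2 fold change of 0.74 beside 0.02 over all genes, and of 20 foam cell genes 17 were higher (median 0.68). Of 19 lysosome genes 14 were higher (median 0.75). Higher with an unadjusted p under 0.05 were 2 macrophage, 3 foam cell and 5 lysosome genes, beside 3.64% of all genes. These lists are abundant: 12 macrophage, 14 foam cell and 13 lysosome genes exceeded a mean of 300 CPM, a level at which 76.8% of all tested genes were higher. The medians kept their sign under RLE scaling (1.28, 1.21 and 1.29) and under voom (0.65, 0.64 and 0.54). Leaving out Apoe-/- 24-week library 1 lowered the macrophage median to 0.49. A higher list can come from more cells of a type or more RNA per cell, and bulk sections cannot tell these apart.

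Lyz2, the lysozyme of macrophages and neutrophils, was present at 943 to 10038 CPM at 24 weeks (median 5361) and at 5841 to 19449 CPM at 42 weeks (median 8523). All 8 libraries at 42 weeks exceeded the 24-week median, and 2 exceeded the 24-week maximum. Its log2 fold change was 0.96 ± 0.38 (edgeR adjusted p = 0.419, unadjusted exact permutation p = 0.0290). Lyz2 was named for its small p within its list, from which the small permutation p follows in part. For each gene named in that way, here and in the lists below, the same holds for counts of libraries beyond the 24-week median, minimum or maximum. Cd68, a lysosomal glycoprotein of macrophages, was present at 85.7 to 1590 CPM (median 616) and at 818 to 3948 CPM (median 1306). Again all 8 libraries at 42 weeks lay above the 24-week median (log2 fold change 1.27 ± 0.53, edgeR adjusted p = 0.430). Csf1r, the receptor for the macrophage growth factor, had 1.01 ± 0.72 (edgeR adjusted p = 0.730).

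Among foam cell genes, Mmp12, the macrophage elastase, had medians of 342 and 824 CPM, with 5 libraries at 42 weeks above the 24-week maximum of 623 CPM (log2 fold change 1.25 ± 0.54, edgeR adjusted p = 0.449). Npc2, which moves cholesterol out of lysosomes, had medians of 796 and 1523 CPM (0.87 ± 0.40). Gpnmb and Trem2, a glycoprotein and a lipid receptor of foamy macrophages, had 1.13 and 0.97. For Gpnmb the value was 2.17 in Apoe-/- and 0.10 in Apoe-/-Mif-/- mice, and the difference between genotypes did not pass (interaction, edgeR adjusted p = 0.292). Spp1, which encodes osteopontin and was the most abundant gene of 7 libraries, stood apart from the list: its medians were 18002 and 15520 CPM (-0.18 ± 0.35), and RLE scaling turned its sign (0.36). Over the list as a whole the median was 1.05 in Apoe-/- and 0.01 in Apoe-/-Mif-/- mice, and for macrophage genes 1.39 and 0.09. Whether these lists differed between genotypes was not tested.

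Of the lysosomal genes, Ctsb and Ctsd, 2 abundant cathepsins, had medians of 6482 and 10649 CPM and of 5226 and 8743 CPM at 24 and 42 weeks (log2 fold changes 0.92 ± 0.38 and 0.82 ± 0.42). Cst3, the cathepsin inhibitor cystatin C, had medians of 3758 and 7227 CPM (1.17 ± 0.44, edgeR adjusted p = 0.389). Apoe-/-Mif-/- 42-week library 1 reached 48808 CPM and held 36.2% of the Cst3 signal, and without it the value was 0.55. Lamp1 and Lamp2, the main membrane proteins of the lysosome, had 0.80 and 1.71.

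Cytosolic ribosomal protein transcripts were higher at 42 weeks in 22 of 24 genes, with a median log2 fold change of 0.58. Of the 24, 2 were higher with an unadjusted p under 0.05, beside 3.64% of all genes. Of these 24, 18 exceeded a mean of 300 CPM, a level at which 76.8% of all tested genes were higher. All 24 were higher in Apoe-/- mice (median 0.80) and 17 in Apoe-/-Mif-/- mice (median 0.24). Rpl8 was present at 650 to 1224 CPM at 24 weeks (median 882) and 717 to 3791 CPM at 42 weeks (median 1400). In 6 of 8 libraries at 42 weeks it exceeded the 24-week maximum (log2 fold change 0.89 ± 0.39, edgeR adjusted p = 0.471). Rpl13 had medians of 1331 and 2322 CPM and a log2 fold change of 0.79 ± 0.36 (edgeR adjusted p = 0.504).

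The vessel wall itself gave small or mixed differences. Of 15 contractile smooth muscle genes 4 were higher and 11 lower (median -0.31). Relative to all genes the median was -0.33 under TMM, -0.36 under RLE and -0.04 under voom, and without Apoe-/-Mif-/- 24-week library 4 the TMM median was 0.12. Acta2 had medians of 5530 and 3708 CPM, with ranges that overlapped fully and a log2 fold change of -0.03 ± 0.46 that changed sign with the scaling. Myh11, the smooth muscle myosin heavy chain, had medians of 659 and 700 CPM (0.23 ± 0.58), a sign that turned with voom quality weights (-0.23). Mylk, the kinase that activates smooth muscle myosin, had medians of 101 and 27.5 CPM, all 8 libraries at 42 weeks lying below the 24-week median (-1.66 ± 0.82, edgeR adjusted p = 0.538). Des, the muscle intermediate filament desmin, had medians of 33.7 and 9.14 CPM (-1.96 ± 1.04, and -0.80 without Apoe-/- 24-week library 1).

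In the matrix, 11 of 16 elastic fibre genes were lower (median -0.22). Relative to all genes the median was -0.24 under TMM, -0.15 under RLE and 0.08 under voom, and without Apoe-/-Mif-/- 42-week library 2 the TMM median was 0.12. Fbn1, the microfibril protein fibrillin 1, had medians of 343 and 115 CPM (-1.04 ± 0.61, edgeR adjusted p = 0.627), and Eln, elastin, 2054 and 1644 CPM (-0.53 ± 0.48). Of 15 collagen chains 9 were higher (median 0.17). Col4a2 and Col4a1, the chains of basement membrane collagen, had 1.43 ± 0.63 and 0.69 ± 0.49. The endothelial list had 8 of 14 genes higher (median 0.11, and -0.13 under voom). Relative to all genes the median was 0.09 under TMM, 0.14 under RLE and 0.12 under voom. Cdh5, the cadherin of endothelial junctions, had medians of 28.4 and 31.0 CPM (0.17 ± 1.02, and -0.23 under voom). Egfl7, a protein secreted by endothelium, had medians of 164 and 363 CPM with all 8 libraries at 42 weeks above the 24-week median (1.07 ± 0.68, edgeR adjusted p = 0.668).

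Transcripts of other tissues moved between libraries as well. All 9 heart genes were lower at 42 weeks (median -0.92) and kept that median sign under RLE and voom (-0.38 and -1.14), and none passed. Without Apoe-/-Mif-/- 24-week library 4 the heart median was -0.47. Nppa, the atrial natriuretic peptide, was present at 11.8 to 587 CPM at 24 weeks (median 111) and at 8.43 to 94.7 CPM at 42 weeks (median 22.9; log2 fold change -1.47 ± 0.75, edgeR adjusted p = 0.565). The high values at 24 weeks were the 4 Apoe-/-Mif-/- libraries, those with code letter C, at 167 to 587 CPM, while the 4 Apoe-/- libraries held 11.8 to 55.0 CPM. The summed heart level was 1460 to 5209 CPM in the code letter C libraries and 161 to 1224 CPM in the other 12. Of 13 striated muscle genes 0 were higher (median -1.09), with medians of -4.73 in Apoe-/- and 1.45 in Apoe-/-Mif-/- mice. Under voom 4 of 13 were higher. With 1 library left out the striated median ran from -2.70 (without Apoe-/-Mif-/- 24-week library 1) to -0.19 (without Apoe-/- 42-week library 2). Myl1, a fast-fibre myosin light chain, had -3.00 ± 1.25, with 44.6% of its signal in Apoe-/- 24-week library 1. The part of such tissue in other results was not tested.

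Inflammatory cytokine and adhesion genes were lower in 9 of 11 cases (median -0.46). Under RLE 5 of 11 were higher (median -0.33) and under voom 4 of 11 (median -0.76). Of the 11, 1 exceeded a mean of 300 CPM. Among all tested genes between 10 and 30 CPM, 43.2% were higher. Icam1, the leukocyte adhesion molecule of activated endothelium, was present at 2.53 to 259 CPM at 24 weeks (median 54.4) and 1.54 to 43.7 CPM at 42 weeks (median 4.45). All 8 libraries at 42 weeks lay below the 24-week median (-2.46 ± 1.18, edgeR adjusted p = 0.522), with -0.59 in Apoe-/- and -4.35 in Apoe-/-Mif-/- mice. Osm, the cytokine oncostatin M, had -5.21 ± 1.58 but 84.9% of its signal in 1 library. Ciita, the master activator of MHC class II, held 141 counts at 24 weeks and 15 at 42 weeks. Of 11 T and NK cell genes 8 were lower (median -0.98), while under voom 7 were higher (median 0.22), and without Apoe-/- 24-week library 4 the median was 0.09. Cd3d had -3.34 with 82.3% of its signal in Apoe-/- 24-week library 4, and Cd3e, which encodes another chain of the same receptor complex, had 3.31 with 58.7% of its signal in Apoe-/- 42-week library 1.

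Among stress and ageing genes, Chac1, an enzyme that degrades glutathione, and Eif2ak3, the endoplasmic reticulum kinase PERK, were among the 20 genes of smallest p, with 735 and 947 counts at 24 weeks against 11 and 14 at 42 weeks (log2 fold changes -4.96 ± 1.35 and -4.58 ± 1.25, edgeR adjusted p = 0.241 each). The list of protein folding stress and autophagy, which holds neither, had 11 of 15 genes higher (median 0.27). Its member with the smallest p, Trib3, a pseudokinase of the same response, had 3.23 ± 1.09 with 75.8% of its signal in 1 library. Of 13 senescence and ageing genes 9 were higher (median 0.40). Beside 3.64% of all genes, 3 of them were higher with an unadjusted p under 0.05. They were Lmnb1, a nuclear lamin that is known to be lost in senescent cells (3.83 ± 1.33, edgeR adjusted p = 0.330), Bcl2l1, an inhibitor of cell death (2.09 ± 0.79, 53.4% of its signal in 1 library), and Gpnmb. Lmnb1 rested on 21 counts at 24 weeks and 233 at 42 weeks.

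The remaining genes among the 20 of smallest p were mostly of low level. Rap1gap, which switches off the small GTPase RAP1, was higher at 42 weeks, with 0 to 5.13 CPM at 24 weeks (median 1.12) and 1.29 to 184 CPM at 42 weeks (median 18.9; log2 fold change 5.36 ± 1.27, edgeR adjusted p = 0.198). All 8 libraries at 42 weeks lay above the 24-week median and 5 above the maximum. For every gene among the 20 of smallest p, such counts of libraries follow in part from the choice by p on these same libraries. Rwdd2b held 20 counts at 24 weeks and 687 at 42 weeks. Lower at 42 weeks were Slc9a5, a sodium-proton exchanger (1137 counts against 22), Helz2, a helicase and nuclear receptor coactivator (1572 against 70), Ciart, a repressor of the circadian clock (1014 against 12), Asic1, an acid-sensing channel (873 against 8), Ezh2, the methyltransferase of Polycomb complex PRC2 (550 against 6), Rlf (446 against 3), Nek3 (453 against 3) and Cspg5 (264 against 1). Mxd3, a repressor of the MYC network, and Syne3, a nuclear envelope nesprin, held 610 and 502 counts at 24 weeks and 0 at 42 weeks. Their pooled levels at 24 weeks were 110-fold and 90.7-fold the same floor of 3 counts over 8 libraries, which takes no account of the spread between mice. Over the alternative settings, other than leaving out 1 library, their log2 fold changes ran from -9.05 to -2.72 and from -9.22 to -1.99. At 24 weeks Mxd3 was itself at 0 in 3 libraries and Syne3 in 4, so these are not differences seen in every mouse. Rlf, Nek3, Cspg5, Mxd3 and Syne3 were at 0 in 5 to 8 of the 8 libraries at 42 weeks. They passed the filter on low counts through the 24-week libraries, where they are high. Acadvl, the first enzyme of long-chain fatty acid oxidation in mitochondria, held 1140 counts against 57 (-3.47 ± 1.14, edgeR adjusted p = 0.319).

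Direction depended on level. Of genes under 10 CPM 35.9% were higher at 42 weeks, of those between 100 and 300 CPM 67.6%, and of those above 300 CPM 76.8%. The TMM factors by which libraries were scaled had a median of 0.784 at 42 weeks and 1.14 at 24 weeks. Median log2 fold changes ran from -0.62 in the lowest class to 0.37 in the highest. Both this trend and the lower number of genes with 10 counts apply to all lists above, and the abundant macrophage, lysosome and ribosomal genes sit at the higher end. Their part in those results was not tested.

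**Figure D2:**
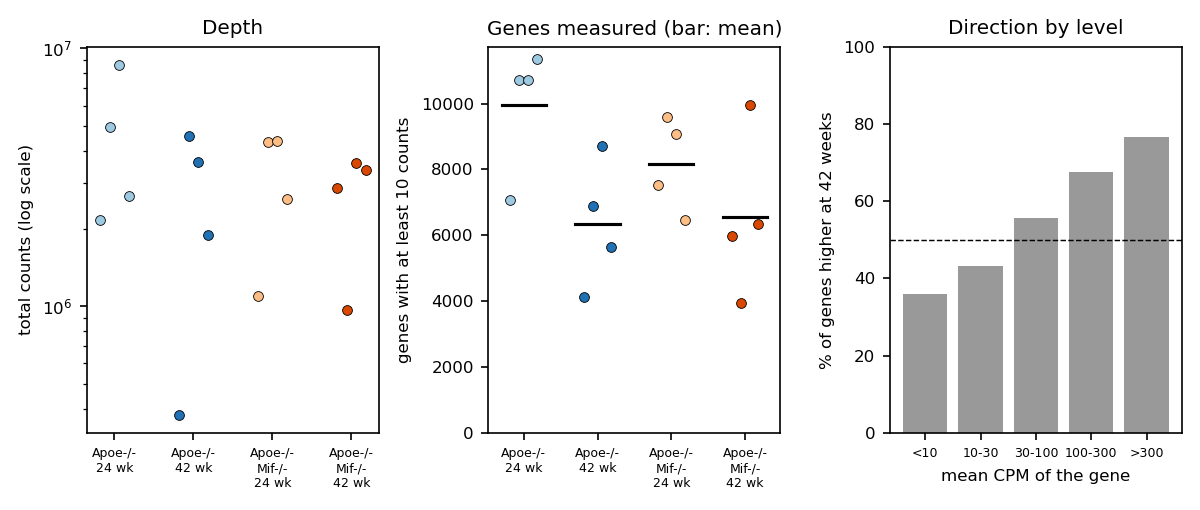
Total counts of each library on a log scale (left), genes with at least 10 counts with bars at the mean of 4 mice (centre), by genotype and weeks on diet (wk), and the percentage of tested genes with a positive additive log2 fold change in 5 classes of mean CPM (right, dashed line at 50%). The percentage rises from 35.9% under 10 CPM to 76.8% over 300 CPM.

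The additive model assumes that duration acts alike in both genotypes, and that assumption was tested as an interaction. edgeR called 73 genes (0.686%) at an adjusted p under 0.05, 62 with a larger value in Apoe-/-Mif-/- mice and 11 with a smaller one. In 60 of the 62 the estimate was below 0 in Apoe-/- and above 0 in Apoe-/-Mif-/- mice, and the additive model averages these opposite estimates. They included 9 of the 28 tested genes of white and brown fat. Thrsp, a regulator of lipid synthesis, rose in Apoe-/-Mif-/- mice from 1.31 to 10.2 CPM at 24 weeks to 13.6 to 3297 CPM at 42 weeks (log2 fold change 8.15 ± 1.39, edgeR adjusted p = 0.0106). In Apoe-/- mice it ranged from 18.9 to 3931 CPM and from 126 to 1025 CPM (-1.22 ± 1.03, edgeR adjusted p = 0.676). For Plin1, which coats fat droplets, the levels were 0.203 to 0.655 CPM and 1.68 to 458 CPM in Apoe-/-Mif-/- mice, and 1.01 to 708 CPM and 2.07 to 78.5 CPM in Apoe-/- mice (interaction log2 12.58, edgeR adjusted p = 0.0136). Ucp1, the uncoupling protein of brown fat, had an interaction of 11.89 (edgeR adjusted p = 0.0136) and an additive log2 fold change of 0.08.

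These calls rested on few libraries. Of the 73 genes 42 had over 50% of their signal in 1 library, and 33 of the 62 had at most 5 counts in every library of the Apoe-/-Mif-/- group at 24 weeks, which alone has code letter C. No gene passed with limma voom, without the 2 shallowest libraries (under 1000000 counts), or with counts under 1% of a gene's maximum set to 0. With 1 library left out the interaction gave between 0 and 124 genes. It gave 0 without Apoe-/- 42-week library 1, 2 or 4, Apoe-/- 24-week library 1 or Apoe-/-Mif-/- 24-week library 1. It gave 14 without Apoe-/- 42-week library 3. Without Apoe-/-Mif-/- 24-week library 2, 3 or 4 it gave 18, 21 and 14. Without Apoe-/- 24-week library 2, 3 or 4 it gave 124, 119 and 47, and without Apoe-/-Mif-/- 42-week library 2 or 3 it gave 48 and 124.

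H2-Eb1, an MHC class II beta chain that presents antigen to helper T cells, differed in the other direction. It was present in Apoe-/-Mif-/- mice at 288 to 933 CPM at 24 weeks and 17.2 to 80.8 CPM at 42 weeks, without overlap, and in Apoe-/- mice at 110 to 366 CPM and 317 to 632 CPM. The H2-Eb1 interaction was -4.82 ± 1.11 (edgeR adjusted p = 0.0388, 0.0712 under RLE scaling, and 0.0347 to 0.0726 with 1 library left out), and the additive log2 fold change was -1.27 ± 0.89 (edgeR adjusted p = 0.717). The H2-Eb1 call held in 9 of 23 alternative settings, and not with limma voom. The interaction called 1 of the 9 tested MHC class II genes. At 42 weeks 3 of the 9 were higher in Apoe-/-Mif-/- mice and 6 in Apoe-/- mice. Their summed level in Apoe-/-Mif-/- mice overlapped, at 2106 to 5152 CPM at 24 weeks and 997 to 2371 CPM at 42 weeks.

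Lists were described in each genotype, and whether they differed between genotypes was not tested. All 11 tested mitochondrially encoded genes were higher at 42 weeks in the additive fit (median 0.91), but 0 of 11 were higher in Apoe-/- mice (median -0.56) and 11 of 11 in Apoe-/-Mif-/- mice. The interaction called 0 of these 11 genes. Their summed level in Apoe-/- mice at 24 weeks was 106732 and 49937 CPM in libraries 1 and 4 but 6097 and 9820 CPM in libraries 2 and 3, which lay below all 4 Apoe-/- libraries at 42 weeks (15786 to 44376 CPM). Without Apoe-/- 24-week library 1 the additive median was 1.46. mt-Nd4, a subunit of respiratory complex I, was present at 656 to 11521 CPM at 24 weeks (median 1202) and 1948 to 14072 CPM at 42 weeks (median 5200). The additive log2 fold change was 1.00 ± 0.58 (edgeR adjusted p = 0.614), made up of -0.24 in Apoe-/- and 2.24 in Apoe-/-Mif-/- mice, and the interaction did not pass (edgeR adjusted p = 0.203). Nuclear genes of oxidative phosphorylation were higher in 0 of 22 cases in Apoe-/- mice and 21 of 22 in Apoe-/-Mif-/- mice, and the interaction called 0 of them. White adipocyte genes were higher in 4 and 18 of 18, and brown adipocyte genes in 0 and 9 of 10. The additive medians of these 3 lists were -0.08 (0.22 under RLE and 0.01 under voom, or -0.15 and 0.27 relative to all genes), 1.28 and -0.71. Without Apoe-/- 24-week library 1 they were 0.48, 2.06 and 0.19. The summed white adipocyte level was 425 to 1410 CPM in the code letter C libraries and up to 38734 CPM in the others.

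**Figure D3:**
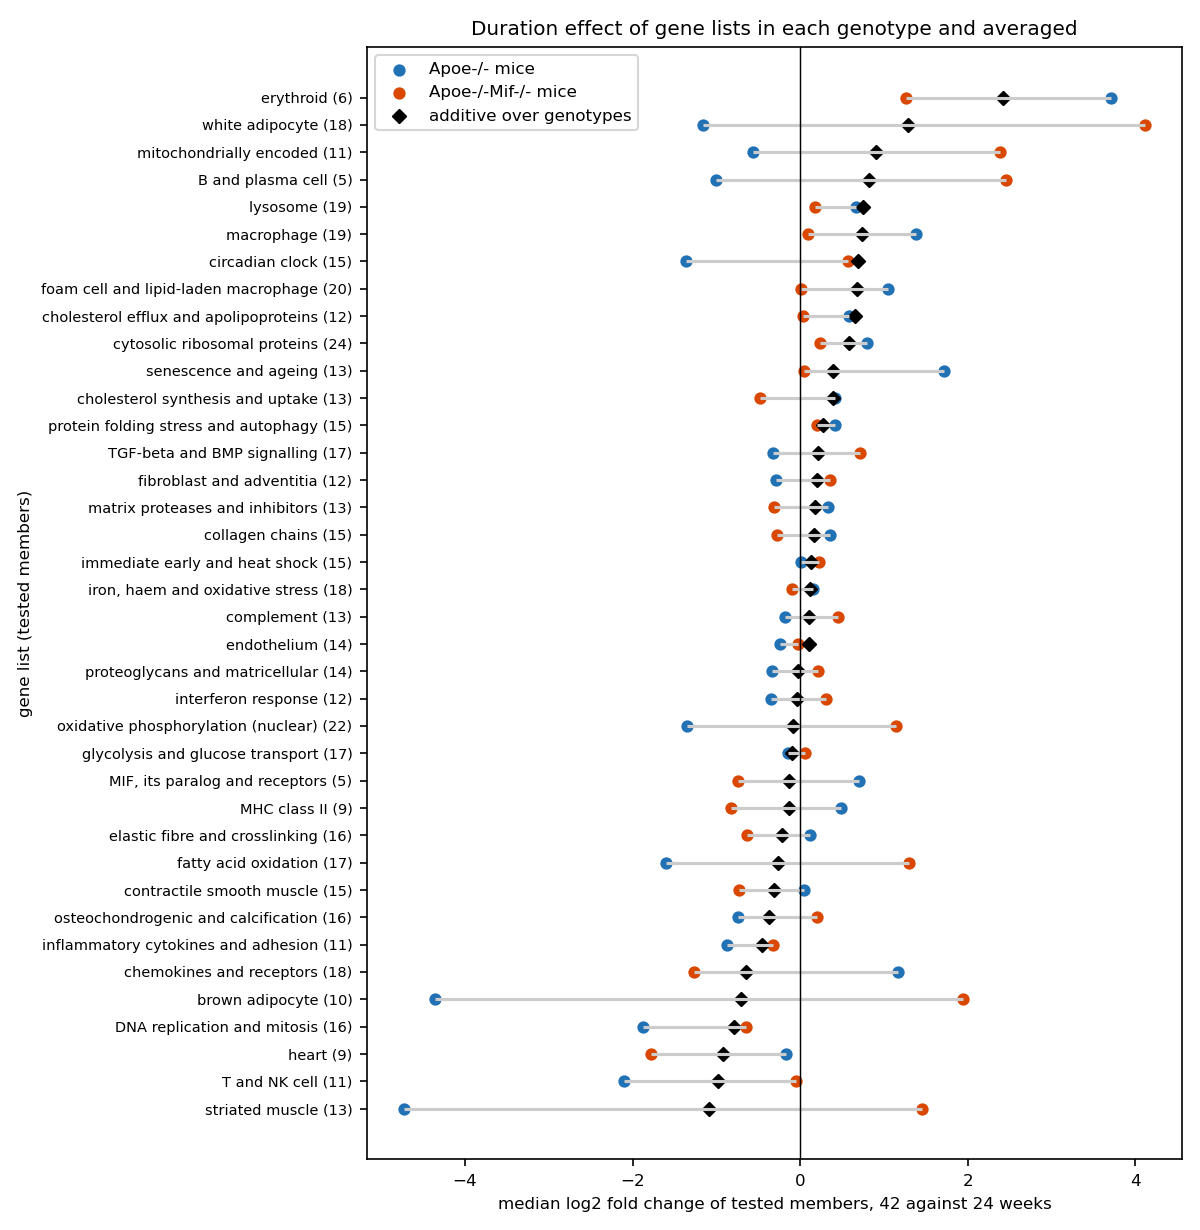
Median log2 fold change, 42 against 24 weeks, of the tested members of each gene list (number in brackets), in Apoe-/- mice (blue), Apoe-/-Mif-/- mice (orange) and in the additive model (black diamonds). Grey lines join the genotypes: erythroid genes lie above 0 in both, and white adipocyte and mitochondrially encoded genes lie on opposite sides.

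Fits made separately on the 8 libraries of each genotype, which share no library, were set side by side across all tested genes. The log2 fold changes had a Pearson r of -0.02 and a Spearman rho of -0.02, and 5229 genes (49.2%) had the same sign. These are values across genes, which are not independent replicates. For the 530 genes above 300 CPM, where the error is smallest, r was -0.35 and 52.5% had the same sign. Duration was also tested within each genotype in a joint model of all 16 libraries, not in these separate fits. That test gave 0 calls in Apoe-/- mice (0%) and 13 in Apoe-/-Mif-/- mice (0.122%). At an unadjusted p under 0.05 it gave 1301 genes (12.2%) in Apoe-/- mice and 1391 (13.1%) in Apoe-/-Mif-/- mice.

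**Figure D4:**
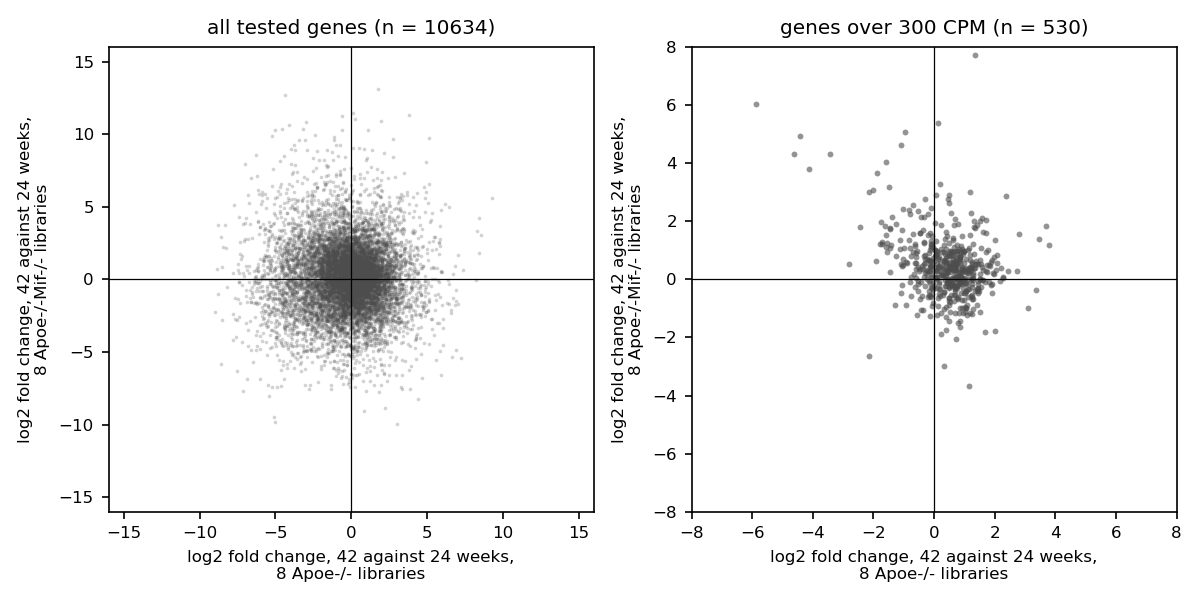
Log2 fold change of each gene, 42 against 24 weeks, fitted on the 8 Apoe-/- libraries (horizontal) and on the 8 Apoe-/-Mif-/- libraries (vertical), for all 10634 tested genes (left) and for the 530 genes above 300 CPM (right). The cloud has no slope on the left (r = -0.02) and a falling slope on the right (r = -0.35), where 52.5% of genes had the same sign.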

How the data were processed

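Polyadenylated RNA of brachiocephalic artery sections was measured by a Smart-seq2 protocol from 1 ng of RNA per mouse, per the labels' protocols, which marks neither strand nor molecules, so that overlapping genes and amplified copies are not resolved. The authors deposited raw counts as whole numbers, with a row for each symbol. Reads, per the submitters' processing notes, were trimmed with cutadapt 1.18 and Trim Galore 0.6.4, checked with FastQC 0.11.5 and aligned with STAR 2.5.2b to GRCm39, and the counting program and annotation are not given in the sources used here. A second deposited table held variance-stabilised log2 values of 9578 genes and served as an alternative input. Of 55359 rows, 1 blank row (at most 0.00257% of a library) and 2 reporter rows were left out.

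The test on counts was that of edgeR 4.0.16, run in R 4.3.3 (TMM, filterByExpr with a minimum count of 10, quasi-likelihood test, 13 residual degrees of freedom, Benjamini-Hochberg adjusted p under 0.05). Alternatives used DESeq2 1.42.0, limma 3.58.1, RLE scaling, other filters and models, and each library left out in turn. The scripts were tested on simulated data. Total counts ran from 378066 to 8649518, the median standard error fell from 1.36 under 10 CPM to 0.54 over 300 CPM, and p-values describe the spread between separate mice. Within-genotype permutation allowed 4900 arrangements, with a smallest p of 0.000408.

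The comparison, the gene lists and the rule for naming genes were chosen with earlier results of these data known. Named were Mif and Apoe, the 20 genes of smallest p, genes without overlap between durations, for each list the 2 members of smallest p in its direction and its defining members, and some of the genes called in the interaction. Genes with over 50% of their CPM in 1 library and predicted genes were left out of the ranking. Hba-a2, Alas2, Bpgm, Tyw5, Megf6, Apba2 and Hic2 fall outside the rule and were chosen after their values were seen. Windows before gene starts came from RefSeq and carry its build, and no other coordinates are printed because the annotation at hand is of another build than GRCm39.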

Additional observations from a re-analysis of the deposited data

Results flagged for a closer look

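Duration effects were called as different between genotypes for 13 named genes by the interaction test of edgeR in the main setting. On the log2 scale, Apoe-/-Mif-/- minus Apoe-/- mice, the difference was 9.371 for Thrsp, 12.58 for Plin1, 5.705 for Scd1, which desaturates stearate, 9.274 for Dgat2, which makes triglyceride, 10.62 for the lipase Ces1d, 10.89 for Gpihbp1, which carries lipoprotein lipase on capillaries, 7.933 for Cox8b, 11.67 for Atp2a1, the calcium pump of fast muscle, 8.987 for Acta1, the skeletal muscle actin, 9.640 for Kdr, a VEGF receptor, 11.89 for Ucp1, 8.848 for Cidea, a fat droplet protein, and -4.817 for H2-Eb1. None of these genes passed with limma voom. Of 23 alternative settings, the call held in 6 for Scd1, 8 for Acta1, 9 for H2-Eb1, 10 for Kdr and 14 or 15 for each of the other genes. The sign turned in 0 of them.

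In 29 of 324 groups of 4 mice, 1 library stood far from the other 3 by Dixon's criterion. Among library measures these were a log10 total of 5.984 in Apoe-/-Mif-/- 42-week library 2, 7059 genes with 10 counts in Apoe-/- 24-week library 1 and a mitochondrial share of 3.065% in Apoe-/-Mif-/- 24-week library 4. The criterion flags any group in which 3 libraries are tied at 0 counts. Rlf at 42 weeks, with 3 counts in all and 6 libraries at 0, was flagged in this way. The number of groups therefore cannot be set against chance.

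In Apoe-/- mice at 24 weeks, the genes concerned were Slc9a5 (5.234 CPM in library 2), Syne3 (4.376 CPM in library 4), Npc2 (1259 CPM in library 3) and Col4a1 (118.2 CPM in library 4). In Apoe-/- mice at 42 weeks, they were Rlf and Ciita (0.2599 CPM each in library 3), Nek3 (0.6975 CPM) and Ezh2 (2.093 CPM) in library 4, and Osm (0.2955 CPM in library 2). In Apoe-/-Mif-/- mice at 24 weeks, Mxd3 and Syne3 were at 0 CPM in library 1, where Col4a1 had 310.4 CPM. In library 4 of that group Alas2 had 127.7 CPM, mt-Nd4 5109 CPM, Myl1 39.32 CPM, Cd3e 2.313 CPM and Car3 11.10 CPM, and Megf6 had 0.2051 CPM in library 2. In Apoe-/-Mif-/- mice at 42 weeks, Rlf (0.4789 CPM), Wiz (5.508 CPM) and mt-Nd4 (1948 CPM) stood apart in library 3, Cspg5 (1.393 CPM) and Hic2 (3490 CPM) in library 2, Pfkm (12.84 CPM) and Acta2 (12020 CPM) in library 1, and Apba2 (1519 CPM) in library 4.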

How the results depend on the processing

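No paired analysis was possible because the labels give a separate mouse for each library and no number shared between groups. The counts of genes higher and lower at 42 weeks were 106 and 37 with no filter on low counts, 194 and 157 with DESeq2, and 4 and 0 with group means weighted equally. The 4 were Car3, Megf6, Apba2 and Hic2, of which the last 3 had 89.7% to 98.1% of their signal in 1 library. All other settings, including each library left out in turn, gave 0 and 0. The interaction gave 426 genes with no filter, 545 with DESeq2, 0 with limma voom, 0 with counts under 1% of a gene's maximum set to 0 and 0 without the 2 libraries under 1000000 counts. The last 2 settings were chosen after seeing the data. Leaving out 1 library gave 0 to 124. Genes without overlap between durations numbered 10 to 24 with 1 library left out, 14 with low counts set to 0 and 22 without the 2 shallow libraries. The additive log2 fold change turned its sign for 9 named genes. For Mif it was 0.23 under RLE, 0.22 with DESeq2, 0.0445 on the deposited log2 values, 0.14 with duration alone, 0.18 with code letter as a term, 0.12 without the shallow libraries and -0.32 to 0.14 leaving out 1 library. For Spp1 it was 0.36 under RLE and DESeq2, 0.12 with voom, 0.56 on the deposited values, 0.17 with an adipocyte covariate and -0.35 to 0.11 leaving out 1 library. For Acta2 it was 0.52 under RLE and DESeq2, 0.64 on the deposited values, 0.26 with code letter, 0.55 with the adipocyte covariate, 0.32 without the shallow libraries and -0.36 to 0.22 leaving out 1 library. With code letter as a term, which leaves the Apoe-/- comparison alone, mt-Nd4, mt-Nd1 and Eln had -0.24, -0.56 and 0.38. For Cdh5 it was -0.23 with voom, -0.62 with voom quality weights, -0.21 with low counts set to 0, -0.36 without the shallow libraries and -0.53 to 0.84 leaving out 1 library. For Myh11 it was -0.23 with voom quality weights, -0.0655 with low counts set to 0 and -0.13 to 0.55 leaving out 1 library, and for Alas2 -1.83 to 5.01 leaving out 1 library. The cause was not tested.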
